A study of Mus musculus with 3 samples.

Results

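The vesicular glutamate transporters are encoded in the mouse by Slc17a6 (VGLUT2), Slc17a7 (VGLUT1) and Slc17a8 (VGLUT3). These 3 genes, of 21631 protein-coding genes in the annotation, were taken by name as a family, with earlier results of these data known. Each was examined through its window, the gene span with 5 kb added on each side, and a peak was counted when at least 1 bp of it lay in the window. Chromatin accessibility had been profiled by single-cell combinatorial indexed ATAC-seq in nuclei of whole brain from C57BL6 mice, with the indexed PCR done in nanowells. There were 3 libraries, sciATACv3, sciATACv2 and sciATACv1, called v3, v2 and v1 here, with 1 library per version of the preparation, no treatment and no genetic change named in the labels. The labels do not say what sets the versions apart, nor the age, sex or number of the mice.

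The transporters load glutamate into synaptic vesicles, driven by the electrochemical gradient that the vesicular proton pump sets up, and a neuron that carries one of them can release glutamate. VGLUT1 is the main form in neurons of the cerebral cortex and hippocampus and in cerebellar granule cells. VGLUT2 is the main form in thalamus, hypothalamus and brainstem. VGLUT3 is found in smaller populations that often use another transmitter as well, among them serotonergic neurons, cholinergic interneurons of the striatum and a class of cortical and hippocampal interneurons.

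The v3 list held 512023 peaks, the v2 list 850991 and the v1 list 622754, each peak given by position alone. Sequencing depth and the number of nuclei are unknown. A peak list pools all nuclei of a library, so fewer nuclei with open chromatin at a gene and less open chromatin per nucleus cannot be told apart. Of 20 marker genes of neurons and glia, 20 had a peak within 1 kb of a gene end in each library. Of 5 genes of other tissues, 3, 4 and 3 had one in v3, v2 and v1, among them the liver gene Alb and the insulin gene Ins2, so such a peak does not by itself mark a cell type. With no second library of any version, the spread between replicates is unknown, and no test between versions was made. Intervals cover 95% and counting error only.

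The promoter windows of the outermost annotated starts are shown because each start site lay under a peak in every library. They are RefSeq sequences of the build GRCm38.p6 (the coordinates of mm10), 5′ to 3′, from 250 bases before the start site to 50 from it, with matches to the SP1 box in capitals (GGGCGG, or CCGCCC on the other strand).
Slc17a6, chr7:51621580-51621879, + strand: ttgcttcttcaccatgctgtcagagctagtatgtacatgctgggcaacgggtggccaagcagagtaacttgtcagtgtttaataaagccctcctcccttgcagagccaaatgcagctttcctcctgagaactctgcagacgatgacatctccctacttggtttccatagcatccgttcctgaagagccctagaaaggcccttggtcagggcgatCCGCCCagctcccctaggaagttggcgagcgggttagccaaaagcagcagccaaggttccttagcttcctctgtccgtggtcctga
Slc17a7, chr7:45163671-45163970, + strand: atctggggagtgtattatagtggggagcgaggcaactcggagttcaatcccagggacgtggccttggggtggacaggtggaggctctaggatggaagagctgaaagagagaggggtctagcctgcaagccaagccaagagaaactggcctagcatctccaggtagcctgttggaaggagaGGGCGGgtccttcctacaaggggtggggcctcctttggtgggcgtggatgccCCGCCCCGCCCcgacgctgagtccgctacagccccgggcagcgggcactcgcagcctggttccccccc
Slc17a8, chr10:89621200-89621499, - strand: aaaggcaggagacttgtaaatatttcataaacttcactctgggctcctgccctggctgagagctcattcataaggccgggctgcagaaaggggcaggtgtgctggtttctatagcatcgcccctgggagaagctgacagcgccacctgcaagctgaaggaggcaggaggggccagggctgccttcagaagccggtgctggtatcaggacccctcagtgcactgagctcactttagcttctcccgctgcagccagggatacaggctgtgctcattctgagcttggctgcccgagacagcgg
Slc17a7 held 3 matches to the SP1 box, Slc17a6 held 1 and Slc17a8 held none. An SP1 box was present in 35.7% of the 32851 promoters of the table. Neither these 3 windows nor the promoters of the further starts held a CRE (TGACGTCA, in 1.79% of all promoters), an NRF1 motif (0.971%), an AP-1 motif (TGANTCA, 7.81%), a MEF2 motif (3.69%), a CAGCTG E-box (16.3%), a TATA box (TATAAA, 13.6%) or a CCAAT box (37.4%), both strands searched. The share of G and C bases was 53.7% for Slc17a6, 63.7% for Slc17a7 and 58.0% for Slc17a8, against a median of 52.7% over all promoters.

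All 3 genes had a peak over the outermost start site in all 3 libraries. This held for 66.7% of the 17274 protein-coding genes in the promoter table (70.2% in v3, 75.1% in v2 and 69.5% in v1 on their own), so 3 of 3 is a small count on a common feature. The peak over the Slc17a6 start, at chromosome 7, position 51621830 (mm10), was 635 bp wide in v3, 1156 bp in v2 and 1624 bp in v1. In v3 a second peak of 500 bp followed it after a short break, so the same stretch was listed as 2 peaks in v3 and as 1 in v2 and v1. The peak over the Slc17a7 start, at chromosome 7, position 45163921, was 1158 bp wide in v3, 671 bp in v2 and 892 bp in v1. The peak over the Slc17a8 start, at chromosome 10, position 89621249 on the minus strand, was 909 bp wide in v3, 1149 bp in v2 and 500 bp in v1, the last being the smallest width in the lists. The widest peak came from a different library for each gene.

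Slc17a6 and Slc17a8 each have a further annotated start inside the gene span, and these promoters are shown because at one the libraries differed and at the other peaks of all 3 libraries lay beside the start. Capitals mark the bases inside a peak of any library.
Slc17a6, further start, chr7:51624387-51624686, + strand: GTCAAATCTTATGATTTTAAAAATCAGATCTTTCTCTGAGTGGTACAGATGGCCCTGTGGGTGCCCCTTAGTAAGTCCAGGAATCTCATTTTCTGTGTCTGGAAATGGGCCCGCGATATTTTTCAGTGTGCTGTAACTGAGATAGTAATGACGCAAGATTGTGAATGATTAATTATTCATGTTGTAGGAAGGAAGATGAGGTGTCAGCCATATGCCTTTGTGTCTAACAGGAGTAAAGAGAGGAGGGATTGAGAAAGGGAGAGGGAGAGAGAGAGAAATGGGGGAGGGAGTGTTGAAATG
Slc17a8, further start, chr10:89599766-89600065, - strand: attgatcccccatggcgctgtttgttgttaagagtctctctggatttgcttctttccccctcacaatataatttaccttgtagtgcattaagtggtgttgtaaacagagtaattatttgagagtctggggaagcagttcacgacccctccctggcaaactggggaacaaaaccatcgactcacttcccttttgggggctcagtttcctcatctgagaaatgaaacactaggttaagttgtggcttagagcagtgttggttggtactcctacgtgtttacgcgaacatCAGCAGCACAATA
The Slc17a6 promoter, whose start lies 2807 bp inside the gene, was covered over all 300 bases by a v1 peak of 1261 bp and had 0 bases in a peak of v3 or v2. The nearest v3 peak began 282 bp from that start site and the nearest v2 peak 422 bp from it. The further start of Slc17a8 lies 21434 bp inside the gene. Peaks of all 3 libraries began just past it in the direction of transcription, 86 bp away in v3, 37 bp in v2 and 55 bp in v1, and the v2 peak reached into the promoter window by its last 13 bases. A peak lay over 0 of these 2 further starts in v3, 0 in v2 and 1 in v1. Of the 3771 further starts of protein-coding genes, 78.7%, 82.5% and 77.3% carried one in v3, v2 and v1. Those starts lie at any distance from the outermost one, and 2 starts are too few for a comparison with them. Within 500 bp of the start, every one of the 5 start sites had a peak in each library.

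**Figure D1:**
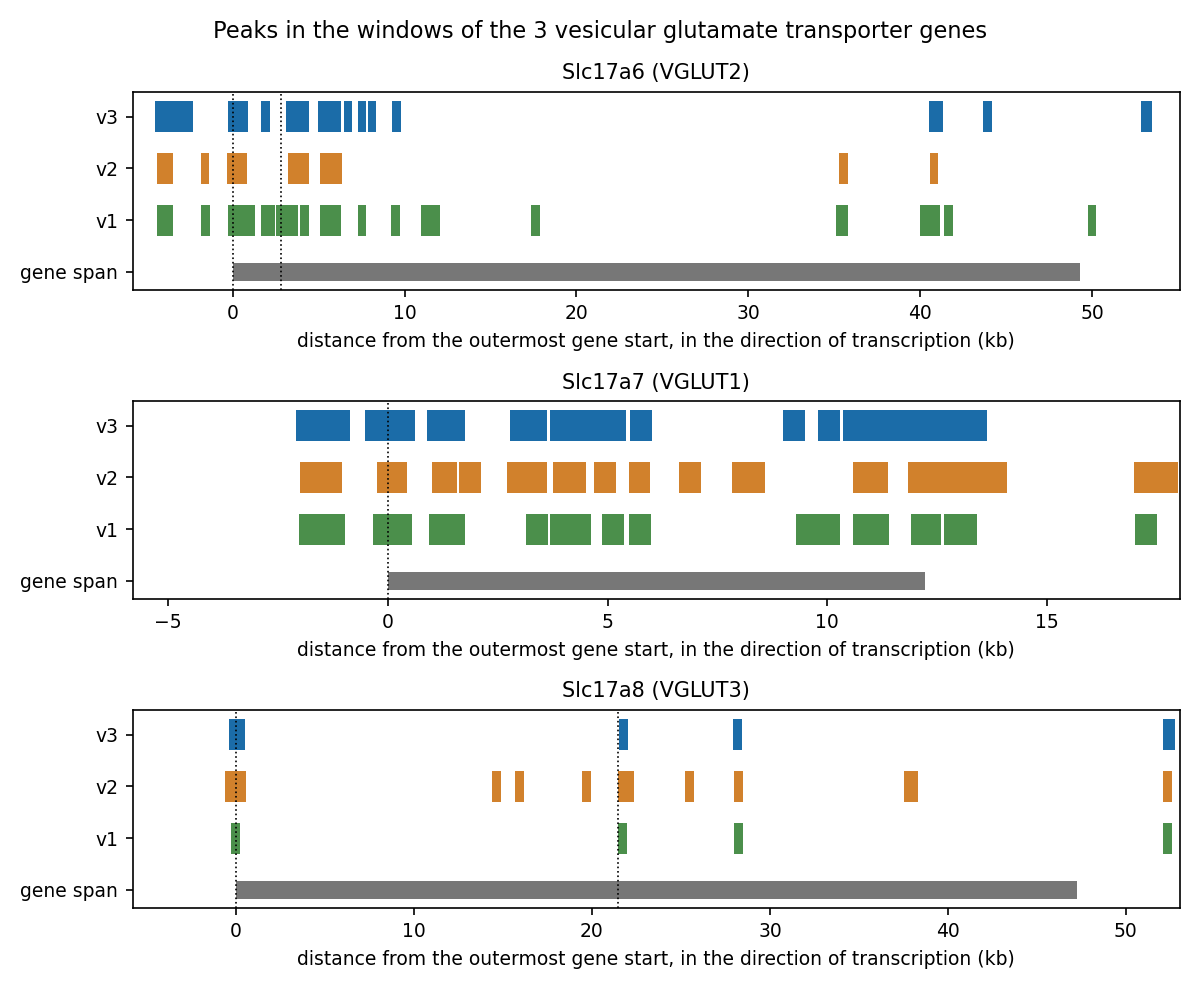
Peaks in the windows of Slc17a6, Slc17a7 and Slc17a8, drawn to scale against distance in kb from the outermost start in the direction of transcription, with 1 row per library (v3, v2 and v1), the gene span as a grey bar and annotated starts as dotted lines. Slc17a7 carries peaks along its whole span, Slc17a6 mostly near its start, and Slc17a8 has 4, 9 and 4 separate peaks in v3, v2 and v1.

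Per length, Slc17a7 was the most densely covered of the 3 genes in every library. Its span of 12219 bp, at chromosome 7, 45163921 to 45176139, is the shortest, and its window of 22.2 kb held 9 peaks in v3, 13 in v2 and 12 in v1. That is 4.05 peaks per 10 kb in v3 (interval 1.85 to 7.69), 5.85 in v2 (3.12 to 10.01) and 5.40 in v1 (2.79 to 9.43). The medians over protein-coding genes were 2.66, 4.26 and 2.97 peaks per 10 kb in v3, v2 and v1. Slc17a7 therefore stood above the median gene in each list, at percentiles 79.3, 82.6 and 91.4, although the counting interval still held the median in all 3. The windows of Slc17a6 and Slc17a8 are longer and take in wide stretches without a peak, up to 30.7 kb and 23.6 kb in v3. Stretches of equal length were not compared between the genes, and the percentiles are over windows of all lengths.

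Slc17a6 spans 49297 bp at chromosome 7, 51621830 to 51671126, and its window of 59.3 kb held 13 peaks in v3, 8 in v2 and 16 in v1. The density was 2.19 peaks per 10 kb in v3 (1.17 to 3.75), 1.35 in v2 (0.582 to 2.66) and 2.70 in v1 (1.54 to 4.38). The gene thus lay somewhat under the median gene in v3 and v1, at percentiles 40.6 and 45.2, and further under it in v2, at percentile 17.1, where the interval lay wholly below the median. Slc17a8 spans 47230 bp at chromosome 10, 89574020 to 89621249, and its window of 57.2 kb held 4 peaks in v3, 9 in v2 and 4 in v1. Its density was 0.699 peaks per 10 kb in v3 (0.190 to 1.79), 1.57 in v2 (0.719 to 2.99) and 0.699 in v1 (0.190 to 1.79), at percentiles 17.0, 18.5 and 15.6. These intervals lay wholly below the median gene in all 3 libraries.

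The order of the peak densities was Slc17a7, Slc17a6, Slc17a8 in v3 and v1, and Slc17a7, Slc17a8, Slc17a6 in v2. Slc17a7 and Slc17a6 had overlapping intervals in v3 and v1, and so did Slc17a6 and Slc17a8 in all 3 libraries. In v2 the interval of Slc17a7 lay above those of both other genes.

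The share of window bases inside a peak gave the same order in v3 and v1 and, in v2, put Slc17a6 just ahead of Slc17a8. Slc17a7 was covered over 47.7% of its window in v3, 44.6% in v2 and 39.0% in v1, while Slc17a6 was covered over 17.7%, 10.3% and 20.8% and Slc17a8 over 3.60%, 9.47% and 2.85%. The median gene was covered over 27.8% in v3, 35.8% in v2 and 23.5% in v1. For Slc17a7 the library with the fewest peaks, v3, thus had the largest covered share, with peaks of up to 3281 bp against 2246 bp in v2 and 1054 bp in v1. Wider peaks were a property of the whole v3 list, with a median width of 726 bp against 500 bp in v2 and v1.

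**Figure D2:**
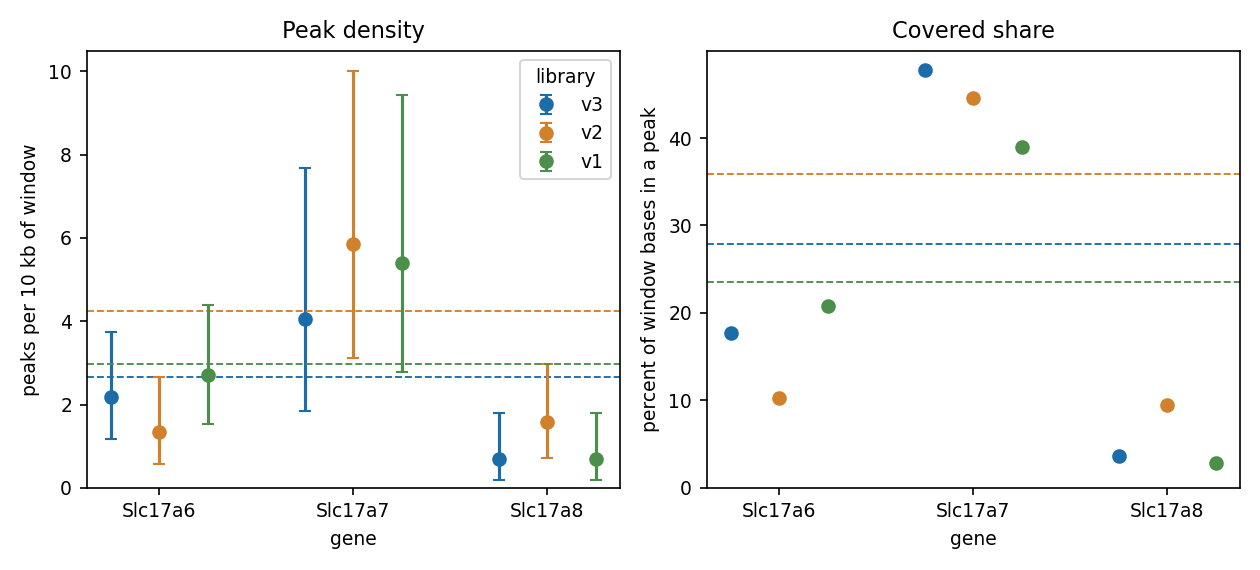
Left, peaks per 10 kb of window with exact Poisson 95% intervals; right, percent of window bases in a peak, each for v3, v2 and v1 in that order within a gene, with dashed lines at the median protein-coding gene of each library. Slc17a7 lies above the medians on both scales, with density intervals that hold them, and Slc17a6 and Slc17a8 lie below them. Among the libraries, v2 gives Slc17a6 its lowest values.

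Of the 3 members, Slc17a6 had the lowest share of merged regions common to all 3 libraries, except among peaks wider than 500 bp, where it was 44.4% for Slc17a6 and 0% for Slc17a8. Its 13 v3, 8 v2 and 16 v1 peaks came from 19 merged regions, of which 12 held a v3 peak, 7 a v2 peak and 15 a v1 peak. All 3 libraries had a peak in 5 of them (26.3%, interval 9.15 to 51.2). The median over 11225 protein-coding genes with at least 10 regions was 46.7%, which lies inside that interval. Of the 19 other genes compared below, Slc17a4 (0%), Slc17a1 (12.5%) and Slc18a1 (26.1%) had lower shares and the rest had higher ones. The shared regions of Slc17a6 were the stretch from 4.51 to 2.31 kb before the start, the start itself (chromosome 7, 51621522 to 51623157), the regions beginning 2.54 and 4.95 kb after it, and one beginning 40.5 kb after it (51662336 to 51663141). They were wide, with a median of 1636 bp, against 500 bp for the 9 regions found in 1 library; a merged region spans all peaks in it, which widens the shared ones by construction.

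The other 14 regions of Slc17a6 were in 1 or 2 libraries. From 6.47 to 17.9 kb after the start v3 had 4 peaks and v1 had 4, and 2 of these places were common to them, at 51629102 to 51629602 and 51631072 to 51631604. The v2 library had no peak there. Its widest stretch without a peak ran for 28.9 kb, from 6.36 to 35.3 kb after the start, against 30.7 kb in v3, from 9.77 to 40.5 kb, and 17.2 kb in v1, from 17.9 to 35.1 kb. No region was found in v2 alone, although v2 is the longest list, while 4 regions were in v3 alone and 5 in v1 alone. One of the 5 ended at the base before the shared region 40.5 kb after the start, so it borders on that region. For regions of 1 library no share over all genes is at hand, here or in the windows of Slc17a7 and Slc17a8. Whether such counts are unusual is therefore unknown. The place where v2 and v1 shared a peak without v3 upstream, 51619987 to 51620489, lies inside the span of the long non-coding RNA gene Gm33136, which runs across the Slc17a6 start. Of the Slc17a6 window peaks, 4 in v3, 3 in v2 and 5 in v1 touched that span, and the peaks cannot be assigned to either gene.

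The Slc17a7 regions were mostly shared. Of 11 merged regions 8 were in all 3 libraries (72.7%, interval 39.0 to 94.0), 1 was in v3 and v1, and 2 were in v2 alone. As for Slc17a6, the interval holds the median of 46.7% over genes with at least 10 regions. The first 6 regions, from 2.08 kb before the start to the one that begins 5.48 kb after it, were all present in the 3 libraries. The regions in v2 alone began 6.62 and 7.82 kb after the start, inside the widest gap of the v3 list in this window. The largest region, 3732 bp at 45174268 to 45177999, covers the end of the gene and was 1 peak in v3, 2 in v2 and 3 in v1. It continues into Gfy, whose span begins past the end of Slc17a7, and Pth2, the gene of a neuropeptide, lies next to Gfy. In the last region, 45180892 to 45182008, the v2 and v1 peaks covered the Pth2 start and the v3 peak lay beyond the window's edge, so that region counts as shared while its v3 peak is not among the 9. Of the Slc17a7 window peaks, 8 in v3, 11 in v2 and 9 in v1 touched the gene span itself.

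Slc17a8 had the simplest pattern. The 4 regions with a v3 peak were also the 4 with a v1 peak and all had a v2 peak, and the other 5 of its 9 regions were in v2 alone. The shared places were the start (chromosome 10, 89620719 to 89621867), the region beside the further start (89598916 to 89599778), an intragenic region at 89592758 to 89593297, and one past the gene's end at 89568478 to 89569169. The region past the gene's end straddles the window's edge at 89569020. With peaks counted by midpoint, the density was 0.524 peaks per 10 kb in v3 and v1 and 1.40 in v2. All 4 v1 peaks had the minimum width of 500 bp, against 2 of 4 in v3 and 6 of 9 in v2. That width was common in the whole lists. Only 250407 of 622754 peaks in v1, 296094 of 512023 in v3 and 398801 of 850991 in v2 were wider. Of the 5 regions found in v2 alone, those beginning 14.4, 15.7, 19.4 and 25.2 kb after the start were 500 bp wide and that at 37.5 kb was 780 bp wide. No other gene of the annotation touched this window. The share of regions in all 3 libraries was 44.4% (interval 13.7 to 78.8). That interval also holds the median of 46.7% over genes with at least 10 regions.

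**Figure D3:**
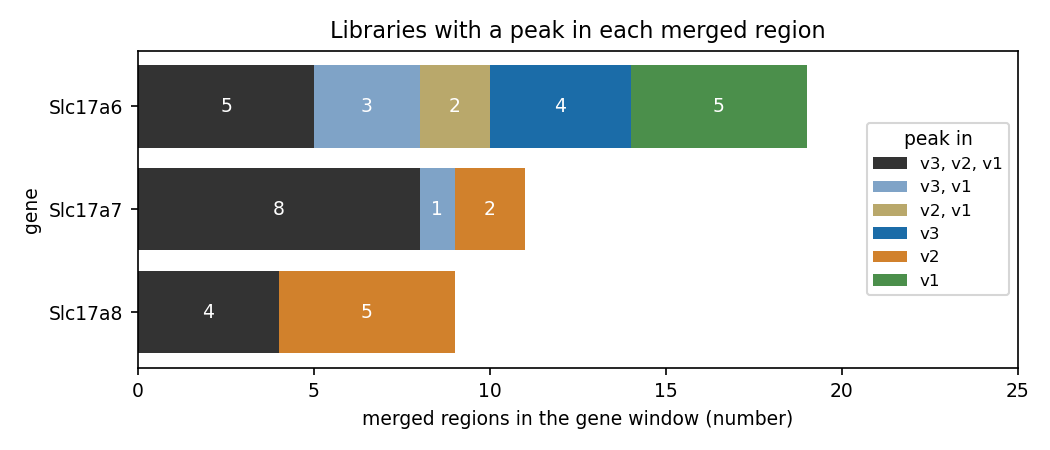
Number of merged regions in the window of each gene, split by the libraries with a peak in the region. Slc17a7 has 8 of 11 regions in all 3 libraries, Slc17a6 has 5 of 19, and 5 of the 9 Slc17a8 regions are in v2 alone.

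Overlap between libraries was also measured in bases. The bases covered in both libraries, as a percent of those covered in either, came to 46.7% for v2 and v1, 40.9% for v3 and v1 and 43.0% for v3 and v2 in the Slc17a6 window. For Slc17a7 they were 58.1%, 72.8% and 57.7%, and for Slc17a8 29.5%, 73.2% and 37.0%, in the same order of pairs. The medians over protein-coding genes were 56.0%, 53.7% and 51.0% (quartiles 43.8 and 65.2, 43.4 and 62.4, and 40.5 and 59.7). Slc17a6 thus lay below the median gene in each pair and Slc17a7 above it. Both lay between the quartiles in the 2 pairs with v2 and outside them between v3 and v1. Slc17a8 lay above the median between v3 and v1 and had the lowest overlap of the 3 genes in both pairs with v2. Its values lay outside the quartiles in every pair. Overlapping 500 bp peaks of 2 libraries were few in these windows. In the Slc17a8 window the starts of such peaks were 2 and 22 bp apart between v2 and v1, 31 and 40 bp apart between v3 and v1, and 18 bp apart between v3 and v2. In the Slc17a7 window they were 17 and 177 bp apart between v2 and v1, 8 bp between v3 and v1 and 25 bp between v3 and v2. In the Slc17a6 window they were 3 and 9 bp apart between v2 and v1 and 1 and 33 bp apart between v3 and v1. Over all overlapping 500 bp peaks the median distance was 19, 27 and 31 bp in these pairs.

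Because the lists differ in length, the window peaks were also compared as shares of all peaks in the list. The ratio of these shares is read against a fold of 2 in either direction, over the 16774 protein-coding genes with at least 10 window peaks summed over the libraries. All 3 members passed that minimum, with 37 peaks for Slc17a6, 34 for Slc17a7 and 17 for Slc17a8. The gene set was proposed with earlier results in view, among which Slc17a6 already stood out in v2, so its ratios are a description.

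Between v2 and v1, 1 of the 3 members had a share ratio of at most 0.5, against 1.21% of all genes tested, and 0 had a ratio of at least 2, against 3.88%. This member was Slc17a6, with 8 v2 and 16 v1 peaks and a share ratio of 0.366 (interval 0.136 to 0.906). Slc17a7 had 13 v2 and 12 v1 peaks and a ratio of 0.793 (0.333 to 1.90). Slc17a8 had 9 v2 and 4 v1 peaks and a ratio of 1.65 (0.460 to 7.32). The median gene stood at 0.966. Of these intervals that of Slc17a6 left out 1, but among peaks wider than 500 bp its ratio was 0.314 with an interval of 0.0692 to 1.17, which holds 1. The intervals treat peaks as independent, whereas all 7 Slc17a6 regions with a v2 peak also held a v1 peak. Leaving out 1 is therefore not a test. The Slc17a8 ratio passed 2 when covered bases were used, at 2.26.

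Between v3 and v1, 0 of the 3 members passed the fold in either direction, against 5.69% of genes at a ratio of at least 2 and 2.87% at 0.5 or less. The ratios were 0.988 (0.437 to 2.19) for Slc17a6, 0.912 (0.339 to 2.36) for Slc17a7 and 1.22 (0.227 to 6.53) for Slc17a8, beside a median of 1.07. The intervals are wide enough to hold changes of 2 or more in each direction. Among peaks wider than 500 bp the ratio was 0.634 for Slc17a6 and 0.564 for Slc17a7, and Slc17a8 had 2 such peaks in v3 and 0 in v1.

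Between v3 and v2, 1 of the 3 members had a ratio of at least 2, against 3.10% of genes, and 0 had a ratio of at most 0.5, against 3.76%. It was again Slc17a6, with 13 v3 and 8 v2 peaks and a ratio of 2.70 (1.04 to 7.52). As this uses the same v2 list as the ratio of v2 over v1, it is not separate support for it. Slc17a7 stood at 1.15 (0.434 to 2.91) and Slc17a8 at 0.739 (0.166 to 2.65), and the median gene at 1.11. Taken as shares of the peaks on chromosome 7 alone, the Slc17a6 ratio was 2.30, with an interval of 0.883 to 6.40 that no longer left out 1. Among peaks wider than 500 bp it was 2.02 (0.479 to 9.73), which also holds 1.

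**Figure D4:**
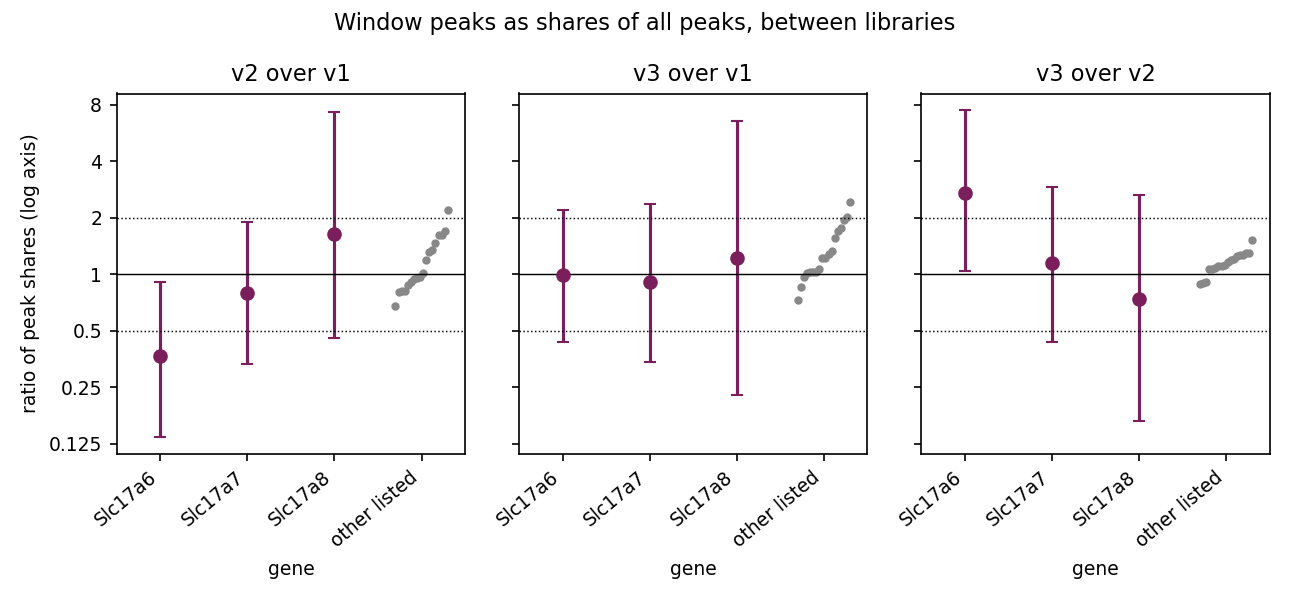
Ratio of window peaks as shares of all peaks (log axis) for v2 over v1, v3 over v1 and v3 over v2, with exact 95% counting intervals for the 3 members and, as grey points without intervals, the 18 other listed genes with at least 10 peaks. Slc17a6 lies below 0.5 for v2 over v1 and above 2 for v3 over v2; the dotted lines mark those folds.

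The other genes of glutamate handling and vesicle loading were set beside the members as a list of 19 genes, of which 18 had at least 10 peaks. Between v2 and v1, 1 of them had a share ratio of at least 2 and 0 had one of at most 0.5, with a median of 0.990 and a range of 0.676 to 2.20. Between v3 and v1, 2 were at 2 or more and 0 at 0.5 or less (median 1.22, range 0.730 to 2.43). Between v3 and v2, 0 were past the fold in either direction (median 1.14, range 0.890 to 1.52). The values of Slc17a6 in v2 over v1 and v3 over v2 lay outside these ranges.

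Among the other members of the SLC17 family, Slc17a5, which encodes the lysosomal sialic acid transporter sialin, had 23 peaks in v3, 34 in v2 and 21 in v1. Slc17a9, the vesicular nucleotide transporter gene, had 7, 13 and 10. Slc17a1, Slc17a2, Slc17a3 and Slc17a4, known as phosphate and organic anion transporters of kidney, liver and gut, had 3 to 8 peaks in v3, 3 to 11 in v2 and 0 to 5 in v1. Per 10 kb these 4 genes had 1.11 to 2.37 peaks in v3, 1.11 to 3.25 in v2 and 0 to 1.48 in v1. Slc17a8 lay below that range in v3 (0.699) and inside it in v2 (1.57) and v1 (0.699). Slc17a6 lay inside it in v3 (2.19) and v2 (1.35) and above it in v1 (2.70). The genes past the fold of 2 in this list were Slc17a2 in v2 over v1, at 2.20 (0.393 to 22.2), and Slc17a2 and Slc17a1 in v3 over v1, at 2.43 (0.349 to 26.9) and 2.03 (0.394 to 13.1). They rest on 2 and 3 v1 peaks and their intervals hold 1.

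Of the 4 vesicular transporter genes of other transmitters, 3 lay above the median gene in peak density in every library, as Slc17a7 did. The counting interval still held the median in all of these values but that of Slc18a2 in v1 (3.58 to 8.18). Slc32a1, which encodes the vesicular GABA and glycine transporter, had 3.79 peaks per 10 kb in v3, 4.87 in v2 and 3.79 in v1. Slc18a2, the vesicular monoamine transporter of the brain, had 3.32, 6.20 and 5.54, and Slc18a3, the vesicular acetylcholine transporter, had 5.64, 7.25 and 4.03. Slc18a1, the monoamine transporter of endocrine cells, had 2.11, 3.25 and 1.46, below the median gene in each library. Its interval left out the median in v1 only (0.669 to 2.78).

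Genes that supply glutamate to neurons and clear it from the synapse mostly lay above the median gene in peak density, 5 of 5 supply genes in v3, 4 in v2 and 4 in v1, and 3 of 4 uptake genes in each library. Glul, the astrocytic glutamine synthetase gene, had 4.04 peaks per 10 kb in v3, 6.06 in v2 and 5.05 in v1. The astrocytic glutamate transporter genes Slc1a2 and Slc1a3 had 4.98 and 4.96 in v3, 6.52 and 6.58 in v2, and 5.96 and 4.73 in v1. The intervals of Slc1a2 and Slc1a3 lay above the median gene in each library, while those of Glul held it. Slc1a6, the glutamate transporter gene of Purkinje cells, was the uptake gene below the median, with 1.34 peaks per 10 kb in v3, 2.46 in v2 and 1.34 in v1. Its interval left out the median in v1 only (0.492 to 2.92).

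Among 9711 protein-coding genes with at least 30 window peaks, the genes nearest to Slc17a6 in how the peak shares divided over the 3 libraries were Rab37 (19 peaks in v3, 12 in v2 and 20 in v1), Poldip2 (10, 8 and 12) and Pax1 (10, 8 and 14). On shares scaled to sum to 1 they were the only genes within a distance of 0.05, the nearest at 0.0489. For Slc17a7, 2710 genes lay within that distance and 10 had exactly the same division, such as Acat1 (18, 26 and 24), Aipl1 and Cyp2ab1 (9, 13 and 12 each). For Slc17a8 252 genes lay within it and 7 were identical, among them Tex9 (12, 27 and 12), Eppk1 and Galntl5 (8, 18 and 8 each). The likeness is over 3 libraries and small whole numbers, for which ties are common. It is computed from the same counts as the share ratios, so it is not separate support for them. The minimum of 30 peaks was set for the compared genes, and Slc17a8 itself had 17.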

How the data were processed

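Accessible chromatin of mouse whole brain was measured in all 3 libraries. The deposited data are 1 peak list per library with chromosome, start, end and a name made from them, and no count, score or height; these coordinates are the authors' own. The submitters' processing notes name ArchR, MACS2 and the build mm10; for aligner, versions and thresholds nothing is stated. Starts were converted to 1-based, no peak was shorter than 500 bp, and the lists covered 20 chromosomes. Gene spans and start sites came from RefSeq tables of GRCm38.p6; exons, introns and peak sequences were not used here, and neither were proteins. The outermost start is the one farthest upstream in the promoter table.

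Python 3.11.15, numpy 2.4.6, pandas 2.3.3 and scipy 1.17.1 were used. Merged regions join peaks of any library that overlap by at least 1 bp, and a region belongs to a window if it touches it. Counts have exact Poisson intervals, shares of regions Clopper-Pearson intervals, and share ratios exact conditional binomial intervals. The share ratio intervals treat peaks as independent, also where libraries have peaks in the same region. Percentiles are mid-rank positions over all protein-coding genes. Named genes were the members, 19 genes of a fixed list (another of its genes is not reported here), genes touching a member window and the 3 nearest genes by Euclidean distance of scaled shares. Counting and ratios were tested on simulated data. The members and lists were chosen with earlier results of these data known. Alternatives were gene spans alone, flanks of 20 kb, peak midpoints, peaks over 500 bp, chromosome totals, covered bases, a 50% cover rule and 500 bp around starts; shares of merged regions were added after seeing the data.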

Additional observations from a re-analysis of the deposited data

How the results depend on the processing

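Of 142 recomputed values, 133 stayed within the counting interval of the reported value (for numbers of starts, within 1.5 times it) and 9 did not. No ratio past the fold of 2 crossed 1, but ratios near 1 did: Slc17a7 in v3 over v1 (1.08 with the gene span, 1.13 with covered bases and 1.11 with merged regions, against 0.912) and in v3 over v2 (0.898 among wide peaks and 0.980 with chromosome totals, against 1.15), and Slc17a6 in v3 over v1 (1.03 with the gene span, against 0.988). Among peaks wider than 500 bp the density of Slc17a6 was 1.01 peaks per 10 kb in v3 and 1.35 in v1, that of Slc17a8 was 0.524 in v2 and 0 in v1 (0% of the window covered), and 0% of the Slc17a8 regions were in all 3 libraries; fewer peaks enter by construction. In these the share ratios of Slc17a8 over v1 have no value. With flanks of 20 kb the v3 peaks covered 9.92% of the Slc17a8 window. Within 500 bp of a start, 5 of 5 starts had a peak in v3 and 5 of 5 in v2, as against 3 of 5 with a peak over the start. The Slc17a6 ratio ranged from 0.314 to 0.373 for v2 over v1 and from 2.02 to 3.05 for v3 over v2 under all alternatives. No paired analysis was possible because each version has 1 library. With 4 to 16 peaks per window, counting error alone leaves most differences unresolved, and depth is unknown.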
